A study of Homo sapiens with 6 samples.

Results

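The 9 genes described here (VIM, ZEB1, ZEB2, SNAI1, SNAI2, TWIST1, CDH2, FN1 and SPARC) are named members of the mesenchymal program, among 19970 genes that code for protein on the autosomes and X. The rule names the genes and sets no threshold on a measured value. For each gene, every region of 6 deposited peak lists that overlapped the gene span extended by 20 kb on both sides was collected, and the bases covered and the number of regions were counted. All 9 genes were found in the gene table, and the window around each held at least 2 regions in both H3K27ac lists.

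Epithelial cells that undergo epithelial-mesenchymal transition lose cell-cell junctions and gain motility. The zinc finger repressors ZEB1, ZEB2, SNAI1 and SNAI2 and the basic helix-loop-helix factor TWIST1 drive this change, in part by binding E-box sequences in epithelial genes such as the one for E-cadherin. VIM (vimentin, an intermediate filament protein), CDH2 (N-cadherin), FN1 (fibronectin) and SPARC (a secreted matrix protein) are products by which mesenchymal cells are recognised. H3K27ac, the acetylated lysine 27 of histone H3, is found at active promoters and enhancers, and broad stretches of it are known at genes that define a cell type.

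CUT&Tag, in which an antibody guides the Tn5 transposase to chromatin so that nearby DNA is released and sequenced, was run on MDA-MB-231, an established triple-negative breast cancer cell line that is widely used as a mesenchymal-like model. NONO, an RNA- and DNA-binding protein, was profiled in negative control cells (NC) and in NONO knockdown cells (NONO-KD). H3K27ac and H3T11ph, the phosphorylated threonine 11 of histone H3 that the study attributes to the kinase PKM2, were profiled in NC cells and in PKM2 knockdown cells (PKM2-KD). Each of the 6 groups was 1 library of 1 cell line, so no value below has a replicate and no test between conditions was possible. The labels used here do not give the knockdown reagent or duration, and peak lists hold no measure of how far NONO or PKM2 was lowered. Intervals are 95% intervals for counting error only, and fragments counted without molecular identifiers are not independent molecules.

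The NC and knockdown lists were not made alike for 2 of the 3 targets. In H3K27ac NC 79.3% of 572970 regions had the narrowest width of the list (112 bp), against 1.19% of 212856 regions in PKM2-KD (113 bp). In NONO NC 94.6% of 89474 regions were 269 bp wide, against 2.05% at the narrowest width of 98 bp among 44349 in NONO-KD. The H3T11ph lists shared 1 form (42674 and 36583 regions). The depth implied by the H3K27ac lists was 7.46 fragments per kb in NC and 7.47 in PKM2-KD. Counts of regions and of bases are therefore set beside all genes, and summit heights in fragments, which depend less on how regions were joined, are given beside them. The part of the list form in any difference between NC and knockdown was not tested.

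The promoter sequences below are shown because the genes differed in whether acetylation reached the 250 bases before the first start. VIM and SPARC were covered over all 250 bases in both H3K27ac lists. ZEB1 was covered over 212 bases in NC and 211 in PKM2-KD. FN1 was covered over 0 bases in NC and 78 in PKM2-KD, and CDH2 and ZEB2 over 0 bases in either list. Sequences are from RefSeq (GRCh38.p14), 5′ to 3′ on the strand of the gene. Capitals mark matches on either strand to the E2-box bound by ZEB and SNAI factors (CAGGTG or CACCTG), the GC box (GGGCGG or CCGCCC), the CCAAT box (CCAAT or ATTGG), the cyclic AMP response element (TGACGTCA), AP-1 (TGANTCA) and the TATA element (TATAAA or TTTATA).
VIM, chr10:17227991-17228240, plus strand: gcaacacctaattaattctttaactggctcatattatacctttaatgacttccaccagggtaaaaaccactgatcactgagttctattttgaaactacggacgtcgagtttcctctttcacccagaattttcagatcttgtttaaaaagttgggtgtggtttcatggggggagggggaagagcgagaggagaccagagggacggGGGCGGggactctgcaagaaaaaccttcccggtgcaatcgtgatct
SPARC, chr5:151686916-151687165, minus strand: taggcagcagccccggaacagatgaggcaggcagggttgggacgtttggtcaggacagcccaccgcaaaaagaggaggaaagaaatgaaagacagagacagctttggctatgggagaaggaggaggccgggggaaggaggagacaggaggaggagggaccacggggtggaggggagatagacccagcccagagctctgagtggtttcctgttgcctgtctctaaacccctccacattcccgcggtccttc
ZEB1, chr10:31318167-31318416, plus strand: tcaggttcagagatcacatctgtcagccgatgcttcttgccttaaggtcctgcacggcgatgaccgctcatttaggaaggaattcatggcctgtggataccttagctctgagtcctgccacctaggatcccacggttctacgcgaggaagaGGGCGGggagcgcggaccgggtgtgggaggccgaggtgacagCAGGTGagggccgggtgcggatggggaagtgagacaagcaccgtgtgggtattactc
FN1, chr2:215436069-215436318, minus strand: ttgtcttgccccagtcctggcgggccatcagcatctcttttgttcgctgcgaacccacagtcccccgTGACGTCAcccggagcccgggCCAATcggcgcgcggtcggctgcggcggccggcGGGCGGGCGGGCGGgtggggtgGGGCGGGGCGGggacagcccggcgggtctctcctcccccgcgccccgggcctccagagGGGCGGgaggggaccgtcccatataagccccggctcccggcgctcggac
CDH2, chr18:28177131-28177380, minus strand: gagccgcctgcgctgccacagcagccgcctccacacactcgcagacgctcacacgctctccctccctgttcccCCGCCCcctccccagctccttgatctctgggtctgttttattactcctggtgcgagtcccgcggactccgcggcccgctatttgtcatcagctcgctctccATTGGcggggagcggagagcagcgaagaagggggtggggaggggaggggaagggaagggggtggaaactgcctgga
ZEB2, chr2:144520120-144520369, minus strand: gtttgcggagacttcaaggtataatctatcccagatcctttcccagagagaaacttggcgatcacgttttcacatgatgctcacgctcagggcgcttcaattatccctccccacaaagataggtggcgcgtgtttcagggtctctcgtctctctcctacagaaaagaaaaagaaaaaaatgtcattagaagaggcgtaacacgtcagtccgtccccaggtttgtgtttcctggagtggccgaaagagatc
Among these 6, ZEB1 held 1 E2-box, a motif found in 17.5% of 35116 promoter windows of the same length. FN1 held 1 cyclic AMP response element (1.65% of windows), 1 CCAAT box (32.01%) and 6 GC boxes (42.6% with at least 1), some of which share bases. VIM and ZEB1 held 1 GC box each, and CDH2 held 1 GC box and 1 CCAAT box. SPARC and ZEB2 held none of the 6 motifs, and no window among the 6 held AP-1 (6.57% of windows) or the TATA element (10.7%). GC content ran from 46% in VIM to 76.4% in FN1, around a median of 58% over all windows, and the fully acetylated promoters of VIM (46%) and SPARC (59.2%) were not the GC-richest. A match is a description of the letters and not evidence of binding.

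In NC the acetylated share of the window was highest at VIM and SPARC and graded downward over the other members. VIM had 24.7% of its window acetylated and SPARC 10.3%. FN1 and ZEB1 followed, both at about 4.29% (4.295% and 4.293%), then SNAI1 at 3.35%. ZEB2, SNAI2, CDH2 and TWIST1 lay between 1.80% and 2.24%. These and SNAI1 were below the median of 3.64% over all genes, and FN1 and ZEB1 were above it. VIM stood at percentile 99.9 of all genes and SPARC at 94.985, while TWIST1 stood at 14.1. The members' median percentile was 44.8, and it lay between 55.4 and 58.8 under 5 of the alternatives given in the closing section. Among regions at least 2 times the narrowest width it was 40.9.

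In PKM2-KD the same pair led. VIM had 24.8% (percentile 99.3) and SPARC 16.3% (percentile 96.9). SNAI2 came next at 3.94%, followed by ZEB1 at 3.18% and SNAI1 at 3.17%, then ZEB2 at 2.33%. FN1 was at 1.75%, TWIST1 at 1.48% and CDH2 at 1.26%. These and ZEB2 were below the median of 2.59% over all genes. The members' median percentile was 57.5. It was 50.5 at −log10 q of at least 5, 50.2 with no extension and 46.6 with 50 kb, each below the NC value at the same setting. Among regions at least 2 times the narrowest width it was 49.3, above the NC value. Which list had the higher median percentile therefore depended on the setting. With 1 library each, neighbours in either order cannot be told apart.

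**Figure D1:**
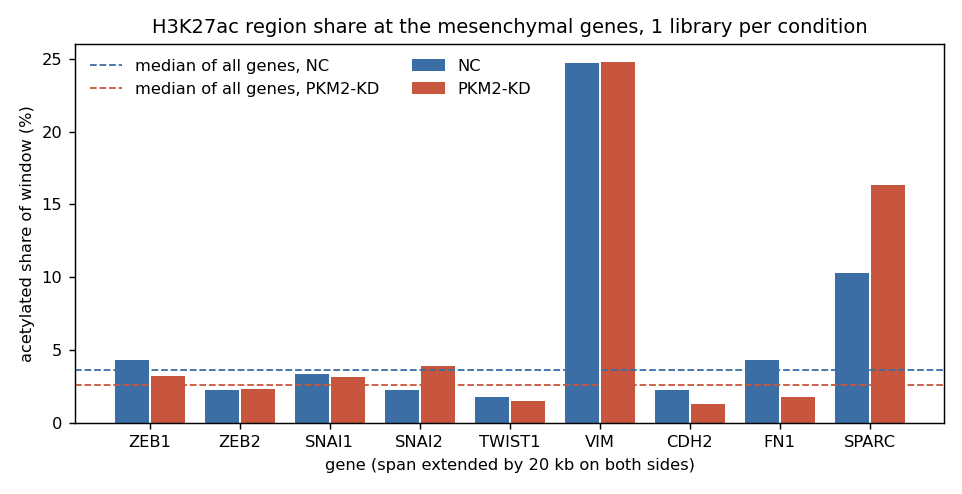
Acetylated share of each gene's window (percent of bases inside H3K27ac regions) in NC (blue) and PKM2-KD (red), 1 library each, with dashed lines at the medians of all 19970 genes (3.64% and 2.59%). VIM and SPARC stand above the other 7 genes in both lists, and FN1 is lower in PKM2-KD (4.29% and 1.75%).

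Summed over the 9 genes, 48281 acetylated bases in 239 regions were listed in NC and 44502 bases in 120 regions in PKM2-KD. The bases in PKM2-KD were 92.2% of those in NC, and the regions 50.2% (39.98% to 62.8%), where the median of all genes was 17 regions in NC and 8 in PKM2-KD. Among regions with −log10 q of at least 5 the bases turned to 135.5% and the regions to 102.5% of NC, so both directions depend on the threshold. The all-gene median of bases was 142% of NC at that threshold. At least a 2-fold lower number of acetylated bases in PKM2-KD was seen at 1 of 9 members (FN1), against 29.1% of 19347 genes with at least 500 bp in either list. None was at least 2-fold higher, against 4.11% of genes. The total of bases in PKM2-KD was 94.5% of the NC total at the median member, and 75.0% at the median of all genes tested. These are ratios of totals and do not give the share of NC bases that was also listed in PKM2-KD.

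The same bases were acetylated in both lists at some members and hardly at all at others. VIM shared 9452 bases, 77.5% of its NC bases and 77.3% of its PKM2-KD bases. SPARC shared 68.8% and 43.3%, and SNAI2 56.0% and 31.9%. ZEB1 shared 39.4% and 53.2%. At SNAI1 4 bases were shared, 0.260% of NC and 0.275% of PKM2-KD, although its totals were close (1539 and 1455 bases). Over the 9 genes, 24.7% (19.6% to 30.5%) of NC regions were met by a PKM2-KD region, against 13.3% of the whole NC list. Of these 59 regions, 13 lay at VIM (56.5% of its regions) and 16 at SPARC (59.3%). ZEB2 (6.67%), SNAI1 (8.33%) and TWIST1 (12.5%) were below the share of the whole list, so the pooled share did not hold for each gene. A similar total at a gene therefore did not mean that the same sites were listed.

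ZEB1, the transcription factor gene with the most regions, had 64 H3K27ac regions over 10792 bases in NC, against 28 over 7998 bases in PKM2-KD (74.1%). The direction for bases turned to 116.7% of NC at −log10 q of at least 5, 142.3% among wide regions (at least 2 times the narrowest width) and 129.0% with lists of equal length. The all-gene medians at these settings were 142%, 145% and 149%, so ZEB1 stayed below the median gene. With regions of at least 20 fragments ZEB1 was at 88.8%, against an all-gene median of 108%. Its first start lay in a region of 845 bp in NC (chr10:31318205-31319049, 79 fragments at the summit) and 891 bp in PKM2-KD (95 fragments). Its tallest region lay inside the gene, 108 kb past the first start, at chr10:31426067-31426868. It reached 214 fragments in NC and 196 in PKM2-KD, a ratio of 0.916 (0.751 to 1.12). The deposited fold was 78.4 and 106.8, in lists whose folds are on different scales. This internal site was taller than the promoter in both libraries and differed between them by less than the counting error. The gene table gives gene ends and not exons, so exon or intron is not stated.

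Sites near it did not move together. The next H3K27ac region, 109 kb past the start (chr10:31427369-31427801), had 114 fragments in NC and 44 in PKM2-KD, a ratio of 0.386 (0.266 to 0.551). An H3T11ph region on it (chr10:31427371-31427602) had 24 fragments in NC and 86 at the overlapping PKM2-KD region. At this site H3K27ac was lower and H3T11ph higher in the PKM2-KD libraries. At 190 kb, H3K27ac had 50 fragments in NC and 21 in PKM2-KD, a ratio of 0.420 (0.240 to 0.712). An H3T11ph region of 75 fragments lay on it in NC (chr10:31508734-31509022), and none was listed there in PKM2-KD. The 2 sites thus had lower H3K27ac in PKM2-KD with H3T11ph listed higher at one and absent at the other.

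At ZEB1 the NC list had 14 NONO regions and the NONO-KD list 4, and none of the 14 was met by one of the 4. Of the whole NONO NC list, 2.01% of regions were met by a NONO-KD region. The tallest in NC had 294 fragments, 139 kb past the start (chr10:31457722-31458105). A region of 172 fragments (chr10:31425623-31425891) lay just before the tallest H3K27ac region without touching it, and 1 of the 14 overlapped H3K27ac in NC. Past the start, NONO regions of 68 and 93 fragments lay at 2.504 kb and 3.56 kb. ZEB1 thus had the most NONO regions by count, though per 10 kb of window it had 0.557, below VIM (1.62), SPARC (1.22) and SNAI1 (0.871).

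ZEB2, the paralogue of ZEB1, had 30 H3K27ac regions over 3946 bases in NC and 18 over 4093 bases in PKM2-KD. No H3K27ac region lay within 1 kb of its start in either list. Of the 9 members, 7 (71.1% of all genes) had one in NC and 7 (62.1% of all genes) in PKM2-KD. SNAI1, SNAI2 and TWIST1 were counted at either gene end. The 2 sets differed, with CDH2 in NC alone and TWIST1 in PKM2-KD alone, the latter through 36 bases of a region of 5 fragments. The tallest ZEB2 site was 2.61 kb inside the gene (chr2:144517222-144517806), with 37 fragments in NC and 48 in PKM2-KD, a ratio of 1.297 (0.827 to 2.05). ZEB2 alone among the members had no NONO region in NC, and it had 3 in NONO-KD of 29, 56 and 48 fragments. H3T11ph had 1 region in NC and 2 in PKM2-KD, at different sites.

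SNAI1 encodes the repressor Snail and had 12 H3K27ac regions in NC against 8 in PKM2-KD. The tallest had 26 fragments in NC (chr20:49989190-49989473, just past the higher-coordinate end of the gene) and 15 in PKM2-KD, at other sites. The ratio of tallest summits was 0.577 (0.284 to 1.13), so this difference was not resolved at this depth. NONO had 4 regions in NC, of which 116, 125 and 189 fragments were the tallest 3, and 1 region of 83 fragments in NONO-KD at another site. All 5 lay outside the gene span.

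SNAI2 encodes the repressor Slug. It had 982 acetylated bases in 6 regions in NC and 1725 bases in 2 regions in PKM2-KD. A single PKM2-KD region of 1563 bp (chr8:48902270-48903832, 47 fragments) lay between 15.3 kb and 13.8 kb below the lower-coordinate end of the gene, where NC had separate regions of 213 bp and 292 bp, the taller with 33 fragments. The summit ratio was 1.42 (0.893 to 2.29), an interval that includes 1. The number of bases depended on the window, since PKM2-KD had 64.0% of NC with an extension of 5 kb and 89.98% with 50 kb. Inside the gene a NONO region of 223 fragments (chr8:48918403-48918671) was listed in NC, with no NONO region in the window in NONO-KD.

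TWIST1 had the lowest acetylated share and the lowest tallest summit of the 9 in NC, though not in PKM2-KD. Its window held 802 acetylated bases in 8 regions in NC, each 112 bp wide and of 6 to 14 fragments, and 658 bases in 3 regions in PKM2-KD, the tallest of 17 fragments. No region of 20 fragments was listed in either library. H3T11ph had 0 regions in either list, and NONO had 1 region of 7 fragments in NC and 0 in NONO-KD.

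VIM carried the strongest acetylation of the set. Its window held 12203 acetylated bases in 23 regions in NC and 12232 bases in 21 regions in PKM2-KD. A single region covered the start in each list, 4305 bp in NC (chr10:17226445-17230749) and 4394 bp in PKM2-KD (chr10:17226445-17230838), with the same first base. Its summit had 232 fragments in NC and 298 in PKM2-KD, a ratio of 1.28 (1.08 to 1.53). The local background used by the caller there was 1.59 fragments in NC and 14.3 in PKM2-KD, so the deposited fold was lower in PKM2-KD (66.6 and 19.5) while the summit was taller.

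Upstream of VIM, 11.3 kb before the start, lay the tallest H3K27ac region of all 9 windows (chr10:17216119-17217751). It had 435 fragments in NC and 339 in PKM2-KD, a ratio of 0.779 (0.674 to 0.900). A neighbouring region 13.6 kb before the start had 301 and 292 fragments, a ratio of 0.970 (0.823 to 1.14), and in NC it stood on a local background of 38.4 fragments. The upstream site was lower and the start taller in PKM2-KD, and the acetylated bases of the whole window differed by 29. The long non-coding gene VIM-AS1 also lies in this window.

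H3T11ph was listed inside VIM, next to its start, in both libraries. The region spanned 302 bp and 71 fragments in NC (chr10:17228489-17228790), and 597 bp and 110 fragments in PKM2-KD (chr10:17228262-17228858). VIM was the single member with H3T11ph within 1 kb of its start in PKM2-KD. It stood on a local background of 11.6 fragments in NC and 10.1 in PKM2-KD. NONO had 8 regions in NC, including 243 fragments 0.903 kb past the start on a background of 19.8 fragments, and 1 region of 17 fragments in NONO-KD. That last region overlapped the NC region of 99 fragments at chr10:17226947-17227215, the one case among the 40 NONO NC regions at the members.

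**Figure D2:**
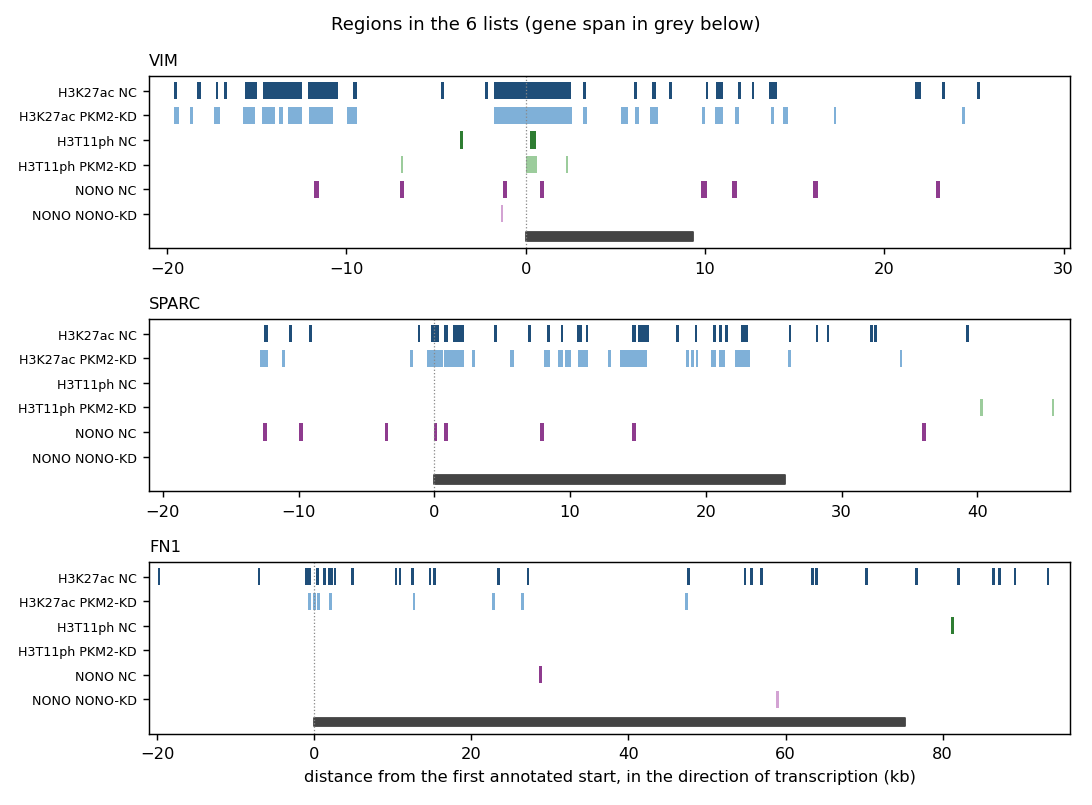
Positions of the regions of the 6 lists at VIM, SPARC and FN1, by distance from the first annotated start in kb, with the gene span as a grey bar, the start as a dotted line, and the narrowest regions drawn at a minimum width. The H3K27ac block over the VIM start (4305 bp in NC, 4394 bp in PKM2-KD) begins at the same base in both lists, and 8 NONO NC regions at SPARC face none in NONO-KD.

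CDH2 encodes N-cadherin, the adhesion molecule that takes over from E-cadherin in mesenchymal cells. It had 40 H3K27ac regions over 6313 bases in NC and 11 over 3590 bases in PKM2-KD (56.9%). Its start had 1 H3K27ac region of 112 bp and 11 fragments in NC (chr18:28176689-28176800) and none in PKM2-KD. Its tallest site lay inside the gene, 61.6 kb past the start (chr18:28115286-28115732), with 83 fragments in NC and 122 in PKM2-KD, a ratio of 1.47 (1.10 to 1.97). Fewer regions and bases were thus listed at CDH2 in PKM2-KD, while its tallest site was higher. The difference in bases depended on the threshold. Bases in PKM2-KD were 94.2% of NC at −log10 q of at least 5, against an all-gene median of 142%. They were 129.8% among regions at least 2 times the narrowest width, against 145%. Among regions of at least 20 fragments (6 in each list) they were 231%, against 108%. CDH2 thus lay below the median gene at the first 2 settings and above it at the third.

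Of the other CDH2 sites found in both lists, those with at least 20 fragments in a library had ratios above 1. At 64.2 kb the summit had 16 fragments in NC and 38 in PKM2-KD, a ratio of 2.38 (1.29 to 4.56). At 255 kb, past the far end of the gene, it had 13 and 40, a ratio of 3.08 (1.61 to 6.27). At 64.8 kb it had 11 and 24, a ratio of 2.18 (1.03 to 4.93). A site 166 kb past the start had 32 and 35 fragments, a ratio of 1.09 (0.658 to 1.82). The site at 66.1 kb, under 20 fragments in both libraries, had 15 in NC and 6 in PKM2-KD. H3T11ph had 6 regions in NC and 0 in PKM2-KD, which as a share is 0% (0% to 84.9%) of NC. One of the 6 (chr18:28176701-28176832, 30 fragments) overlapped the small H3K27ac region at the start, and both were listed in NC alone.

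**Figure D3:**
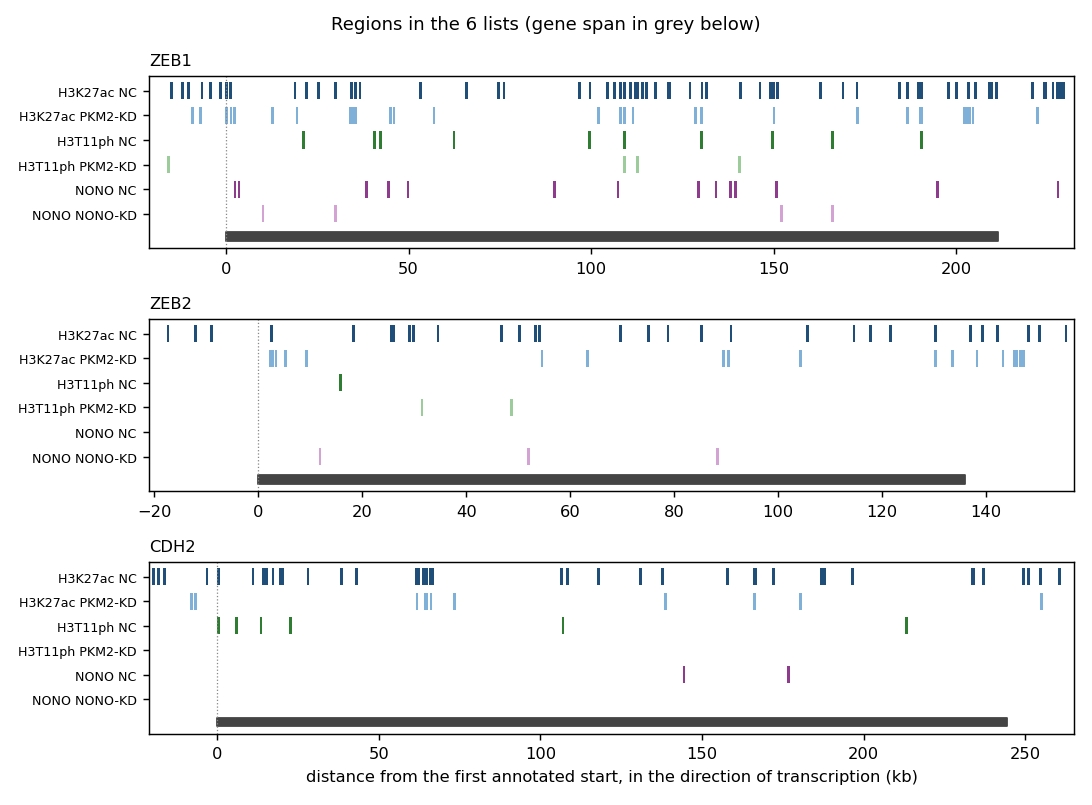
Positions of the regions of the 6 lists at ZEB1, ZEB2 and CDH2, by distance from the first annotated start in kb, with the gene span as a grey bar, the start as a dotted line, and narrow regions drawn at a minimum width. H3T11ph has 10 regions at ZEB1 and 6 at CDH2 in NC, against 4 and 0 in PKM2-KD, and ZEB2 has no region of any list at its start.

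FN1, encoding fibronectin, was the member with the lowest PKM2-KD share of its NC acetylation. It had 29 regions over 4948 bases in NC and 8 over 2013 bases in PKM2-KD (40.7%). Its tallest NC site lay 2.01 kb inside the gene (chr2:215433729-215434378), with 71 fragments in NC and 19 at the overlapping PKM2-KD region, a ratio of 0.268 (0.152 to 0.449). At the start, the region at chr2:215435420-215435903 had 49 fragments in NC and 26 in PKM2-KD, a ratio of 0.531 (0.317 to 0.871). The bases within 1 kb of the start were 862 in NC and 866 in PKM2-KD, so the lower total lay away from the start. Without the regions under −log10 q of 5 the FN1 bases in PKM2-KD were 83.1% of NC, which is no longer past 2-fold. The median of all genes at that setting was 142%, so FN1 stayed below the median gene. With regions of at least 20 fragments FN1 was at 37.5%, against an all-gene median of 108%. The protein-coding gene ATIC lies partly in this window.

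SPARC, which encodes a matrix glycoprotein, went the other way in bases. It had 27 regions over 6756 bases in NC and 21 over 10738 bases in PKM2-KD (159%). The region over its start was 638 bp in NC (chr5:151686556-151687193) and 1135 bp in PKM2-KD (chr5:151686297-151687431). The summits had 67 and 81 fragments, a ratio of 1.21 (0.864 to 1.70). The start region was thus longer in PKM2-KD, with a summit that did not differ beyond counting error.

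One SPARC site inside the gene, 15.4 kb past the start, was also taller in PKM2-KD (33 and 58 fragments, a ratio of 1.76 with an interval of 1.13 to 2.78). NONO in NC had 8 regions at SPARC, and 1 of them (chr5:151686696-151686964, 154 fragments, fold 81.6) lay across the start, inside the H3K27ac region. A second, of 145 fragments, lay 0.835 kb past the start. NONO-KD had none of the 8 and no other region in the window. Over the whole NONO NC list, 2.01% of regions were met in NONO-KD. H3T11ph had 0 regions in NC and 2 in PKM2-KD, both beyond the far end of the gene.

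Heights at the tallest site gave a comparison that does not count regions. At least a 2-fold lower tallest summit in PKM2-KD was found at 1 of 9 members (FN1, 71 and 26 fragments, a ratio of 0.366 with an interval of 0.224 to 0.581), against 11.3% of 19192 genes with a height in both lists. None was at least 2-fold higher, against 5.47%. The interval of the ratio excluded 1 at VIM (lower), FN1 (lower) and CDH2 (higher) and included it at the other 6. At FN1 (summits 1779 bp apart), SNAI1 and TWIST1 the tallest regions of the 2 lists did not overlap, so these ratios compare different sites. By the deposited fold, SNAI2 was past 2-fold higher (12.7 and 26.0, against 14.6% of genes) and no member was past 2-fold lower, against 2.92% of genes. By fold FN1 was at 26.5 in NC and 13.8 in PKM2-KD, a ratio of 0.521. The NC pileup was scaled down, which lowers its fold at equal fragments and background, so fold ratios lean towards PKM2-KD. In fragments the SNAI2 ratio was 1.42.

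Single sites gave the same mixture of directions. Across 37 H3K27ac sites at the members that were listed in both libraries with at least 20 fragments in one, the median PKM2-KD to NC ratio was 1.04, against 1.10 for 38103 such sites genome-wide. Of the 37, 6 were at least 2-fold lower, at VIM (2 sites), ZEB1 (3 sites) and FN1 (1 site), and 4 were at least 2-fold higher, at ZEB2 (1 site) and CDH2 (3 sites). Genome-wide 12.8% of such sites were at least 2-fold lower and 13.5% at least 2-fold higher.

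**Figure D4:**
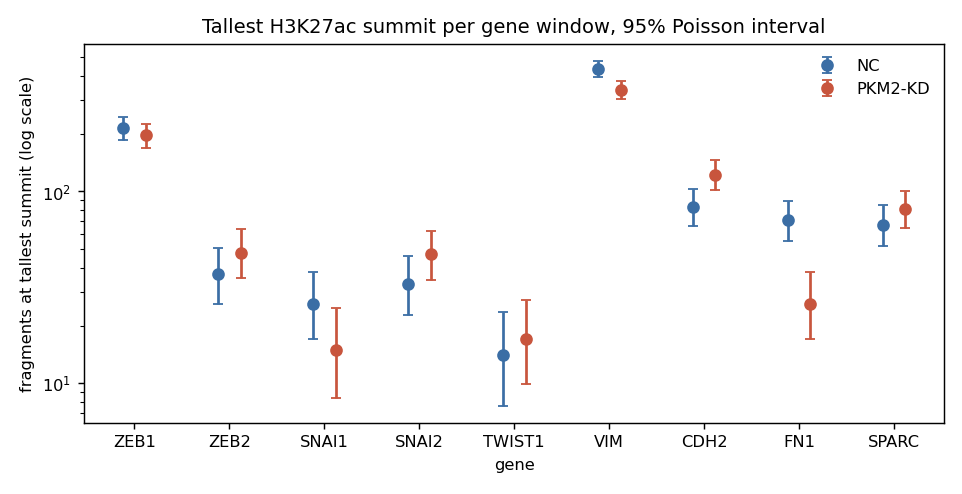
Fragments at the tallest H3K27ac summit of each gene's window on a log axis in NC (blue) and PKM2-KD (red), with 95% Poisson intervals for counting error in 1 library each. FN1 is lower in PKM2-KD (71 and 26 fragments), CDH2 higher (83 and 122), and VIM tallest in both (435 and 339).

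H3T11ph regions at the 9 genes numbered 22 in NC and 12 in PKM2-KD, 54.5% of NC with an interval of 24.6% to 115%. Fewer were listed in PKM2-KD at 4 of the 8 members with any (ZEB1, SNAI2, CDH2 and FN1), against 45.6% of 17407 genes, and more at 3 (VIM, ZEB2 and SPARC), against 36.1%. These shares were near those of all genes. Of the 22 NC regions, 2 (9.09%, 2.53% to 27.8%) were met by a PKM2-KD region, one at VIM and one at ZEB1, against 5.75% of the whole list. H3T11ph lay within 1 kb of the start at VIM and CDH2 in NC.

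NONO regions at the 9 genes numbered 40 in NC and 10 in NONO-KD, 25.0% of NC with an interval of 11.1% to 50.9%. Fewer were listed in NONO-KD at 7 of 9 members, against 77.6% of 18903 genes, and more at 1 (ZEB2), against 11.8%. FN1 had 1 region in each list. The lower number at the members was thus near that of all genes. In NC, NONO lay within 1 kb of an annotated start, or of either gene end where no start was given, at VIM, ZEB1, SNAI2, TWIST1 and SPARC. At ZEB1 this held for later annotated starts and not for the first. In NONO-KD it held at none of the 9.

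Of the 40 NONO NC regions, 11 (27.5%, 16.1% to 42.8%) overlapped H3K27ac in NC, against 16.8% of the whole NONO list, and 4 of these lay at VIM, 4 at SPARC, 2 at SNAI1 and 1 at ZEB1. Of the 22 H3T11ph NC regions, 6 (27.3%, 13.2% to 48.2%) overlapped H3K27ac, against 19.7% of its list. None of the 40 NONO regions overlapped H3T11ph in NC (0%, 0% to 8.76%), against 2.95% of the whole list. The intervals of these shares included the share of the whole list in each case.

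**Figure D5:**
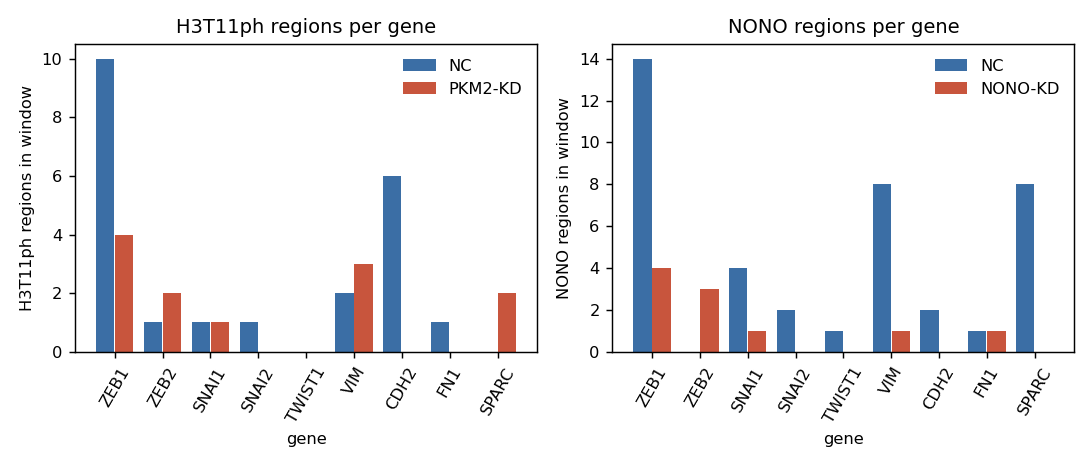
Number of H3T11ph regions (left, NC and PKM2-KD) and NONO regions (right, NC and NONO-KD) in the window of each gene, 1 library per bar. ZEB1 has the most regions of both targets in NC (10 and 14), and SPARC has 8 NONO regions in NC but 0 in NONO-KD.

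The mesenchymal label was checked against epithelial and luminal marker genes. In NC 2 of 9 members and 4 of 18 epithelial genes stood above percentile 90 for acetylated share. The epithelial median percentile was 63.6 in NC and 56.7 in PKM2-KD, against 44.8 and 57.5 for the members. CLDN7 (percentile 96.2), KRT19 (95.8) and CLDN4 (94.0), genes of tight junctions and simple epithelia, led that list in NC, while OVOL2 (7.89), RAB25 (18.9) and CDH3 (21.8) closed it. In PKM2-KD, 1 of the 18 (CLDN3, 23.4% of its NC bases) was at least 2-fold lower and 1 (RAB25, 202%) higher, against 29.1% and 4.11% of all genes. By acetylated share the members were therefore not set apart from epithelial genes, and VIM and SPARC were the members that stood high. In the luminal list GATA3 was at percentile 97.5, ERBB2 at 80.7 and FOXA1 at 69.6, and XBP1 (69.2), ESR1 (32.9) and PGR (26.0) were the lowest. In PKM2-KD 3 of these 6 were at least 2-fold lower in bases, ESR1 at 40.9%, FOXA1 at 31.1% and PGR at 18.6% of NC, and the list's median was 63.8%, against 75.0% over all genes. RNA was not analysed here, so the acetylation of a window is not a measure of expression.

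Other genes of the pathway were counted in the same way, against 29.1% of all genes at least 2-fold lower and 4.11% higher. Among 15 other inducers and signalling genes, 4 were at least 2-fold lower in acetylated bases in PKM2-KD (TCF4, KLF8, GSC and SMAD2) and 1 higher (SNAI3), a share lower that is near that of all genes. SMAD3, a transducer of TGF-beta signals, had the highest share of that list in NC (percentile 99.0), followed by FOXC2 (93.7) and the receptor gene TGFBR2 (92.9). SMAD4 (6.16), TCF4 (4.74) and SMAD2 (4.47) had the lowest in NC. Among 15 other mesenchymal effectors, 4 were at least 2-fold lower (CDH11, POSTN, FBN1 and THY1) and 0 higher, also near the share of all genes. S100A4 (98.5 in NC), the collagen cross-linking enzyme gene LOXL2 (98.1) and FSTL1 (96.7) led, and FBN1 (28.7), THBS1 (22.8) and CDH11 (4.64) closed that list. SMAD3, S100A4, LOXL2 and FSTL1 lay between VIM and SPARC in acetylated share in NC. So did CD44 of the effector list, the epithelial genes CLDN7 and KRT19, and the luminal gene GATA3, so this range was not particular to the pathway.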

How the data were processed

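Libraries were made by CUT&Tag from MDA-MB-231 cells and each sample was grouped by its title. The submitters' processing notes name hg38, FastQC 0.11.9, cutadapt 1.18, SAMtools 1.3.1, MACS2 2.1.1.20160309 and DESeq2. Caller settings, duplicate handling and any control are not given in the sources used here. The authors deposited 1 narrowPeak list per library. In it the deposited score is 10 times −log10 q without decimals, and the deposited −log10 p and −log10 q values are the caller's. The deposited fold was read as summit plus 1 over local background plus 1, both in the caller's scaled units. Regions on chromosomes 1 to 22 and X were used.

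Gene spans came from a RefSeq table (GRCh38.p14). A start within 1 kb of a region was taken from 15812 genes with a promoter entry, and either gene end from the other 4158, SNAI1, SNAI2 and TWIST1 among them. Where a gene had several annotated starts, a region near any of them counted. All-gene comparisons of bases used genes with at least 500 bp in either list. Regions overlapped when they shared at least 1 bp.

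Read totals are not in the lists. Whole summit heights were recovered from fold and −log10 p within a tolerance of 0.002, for at least 99.9% of regions in each list. The H3K27ac NC pileup was taken as scaled by 0.521 and those of the other lists as unscaled. At equal fragments and background the deposited fold is therefore lower in H3K27ac NC than in PKM2-KD. Depth was the most frequent background per base of the narrowest width, corrected for that scale, which assumes that this width is the fragment length. Shares carry Wilson intervals, ratios of counts exact conditional binomial intervals, and heights exact Poisson intervals. Code was tested on simulated lists (Python 3.11.15, numpy 2.4.6, pandas 2.3.3, scipy 1.17.1). No p-value was computed, since each group was 1 library.

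All 9 members were named, and of each further list the 3 genes with the highest and the 3 with the lowest NC acetylated share. Those past 2-fold and CD44 were also named, chosen after their values were seen. Members and lists were chosen with earlier results of these data known. Alternatives were other thresholds, widths, window sizes, list lengths, folds and scales. A minimum height of 20 fragments was added after the data were seen.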

Additional observations from a re-analysis of the deposited data

How the results depend on the processing

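Results that moved are given by setting. With −log10 q of at least 5, the members' H3K27ac regions in PKM2-KD were 102.5% of NC and their bases 135.5%, the members at least 2-fold lower and higher numbered 0 and 2 of 8 tested (all genes 8.26% and 29.9%), and the NC median percentile was 58.8. With regions at least 2 times the narrowest width, these were 143.9% and 143.8%, 0 and 3 of 7 (8.17% and 33.3%), and 4 members had a region at the start in PKM2-KD. With lists of equal length they were 108.1% and 137.5%, 0 and 4 of 9 (5.50% and 31.6%), and the percentile 55.4. With no extension of the gene span, 2 members were lower and 1 higher of 7 (32.4% and 9.69%), and the percentile was 55.4. With 5 kb, 2 of 8 were lower (28.7%) and the percentile was 58.1. With 50 kb, the percentile was 57.1 in NC and 46.6 in PKM2-KD. At 1.5-fold, 2 were lower and 2 higher (43.2% and 10.97%). Divided by the median of all genes, 0 were lower and 2 higher (19.15% and 10.97%). With at least 20 fragments, chosen after seeing the data, regions were 75.6% and bases 115.6% of NC. The all-gene median of bases was 142% of NC at −log10 q of at least 5 and 108% at 20 fragments. It was 145% among wide regions and 149% with lists of equal length, so the median gene also turned above NC at each. FN1 was past 2-fold lower with 0, 5, 20 and 50 kb windows and not under the stricter q, width or equal-length settings.

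Of the other values of single genes, 48 moved and 121 did not. NONO had 0 regions at least 2 times the narrowest width at the members, so that setting gave no ratio. No paired analysis was possible because there was 1 library in a group, and no library could be left out. At ZEB2, SNAI1, SNAI2 and TWIST1 the tallest summits had 14 to 48 fragments, and the interval of the ratio included 1.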
